A study of Mus musculus with 15 samples.

Results

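A set of 10 genes of serine synthesis and of the ATF4 stress response was followed in naïve mouse brain and in 4 syngeneic mouse glioblastoma (GBM) tumors. The genes are Phgdh, Psat1 and Shmt2 (serine and glycine enzymes), Atf4, Ddit3 and Trib3 (stress regulators), Chac1 and Asns (enzymes of glutathione breakdown and asparagine synthesis), and Slc7a11 and Slc3a2 (amino acid transport). They were chosen by name with earlier results of these data known. The shares of all genes given beside them are therefore a description and not a test of the set. All 10 were found by their Ensembl gene ID among the 46679 genes measured. All 10 also passed the filter on low counts, which 17481 genes passed.

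Bulk RNA-seq was available for 15 C57BL/6 mice, 3 in each of 5 groups, and the mice that received tumor cells were 6 to 8 weeks old at implantation. The naïve group was control brain without a tumor. The CT2A line is p53 wild type, the GL261 line carries K-ras and p53 mutations, and both arose after methylcholanthrene treatment. The 005 line has H-ras and AKT activation on a p53+/- background, and the Mut3 line is p53 mutant. All 4 lines carried a GFP and Firefly luciferase marker. CT2A and GL261 were grown in medium with serum before implantation, and 005 and Mut3 in serum-free neurobasal medium with EGF and FGF-2. The dose injected into the right hemisphere was 500000 cells for Mut3 and 100000 cells for the other lines, and tissue was taken after perfusion at the humane endpoint. Each tumor model is a single line, so that its genotype, culture history, cell dose and line cannot be told apart. The tissue is a mixture of tumor, brain and immune cells, in which fewer cells of a type and less RNA per cell cannot be told apart.

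As background, cells make serine from a glycolysis intermediate, with PHGDH as the first enzyme of the route and PSAT1 as the next. SHMT2 then converts serine to glycine in mitochondria and passes a one-carbon unit to folate. ATF4 is a transcription factor whose translation increases when eIF2 alpha is phosphorylated, for example during amino acid shortage or endoplasmic reticulum stress, so that its RNA level is not a measure of its protein. The other 9 genes are known ATF4-responsive genes. DDIT3, also called CHOP, is a stress transcription factor, and TRIB3 is a pseudokinase that can restrain ATF4 signaling. CHAC1 degrades glutathione, ASNS makes asparagine, and SLC7A11 with its partner SLC3A2 forms the cystine and glutamate exchanger. SLC3A2 also pairs with other amino acid transporters. In the healthy brain, PHGDH is mainly found in astrocytes and neural progenitors.

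ATF4 pairs with C/EBP proteins on a composite element, and this sequence was searched in the RefSeq promoter windows of the genes (GRCm38.p6). The element was written as TGATGNAA and searched on both strands within 250 bases before each transcription start. It was present in the windows of Slc7a11, Chac1 and Asns, and these letters were not in the windows of the other 7 genes. The Slc3a2 and Psat1 windows lay inside the annotated genes, so that bases before their outermost annotated starts were not searched. For Trib3 and Slc3a2 the bases that follow the window did not match an annotated transcript in full. Of all 32851 promoter windows, 3.45% held it. Slc7a11 held 2 copies on opposite strands, at -66 to -59 and -47 to -40 relative to the start. Chac1 held 1 copy at -193 to -186 and Asns 1 copy at -23 to -16. The stretches with the matches are printed here to show how the element is placed in each gene, with the element in capitals and each sequence written 5′ to 3′ on the strand of its gene. The Slc7a11 and Chac1 stretches lie outside annotated exons, at chr3:50443634-50443743 (minus strand) and chr2:119350992-119351141 (plus strand), and the Asns stretch, chr6:7693214-7693243 (minus strand), lies in an exon of an annotated Asns transcript.
Slc7a11: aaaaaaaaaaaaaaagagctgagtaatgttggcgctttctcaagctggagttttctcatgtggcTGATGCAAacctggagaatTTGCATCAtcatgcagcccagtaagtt
Chac1: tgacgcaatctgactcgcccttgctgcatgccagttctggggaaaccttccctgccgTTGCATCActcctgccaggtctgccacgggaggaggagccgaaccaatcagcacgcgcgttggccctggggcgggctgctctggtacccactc
Asns: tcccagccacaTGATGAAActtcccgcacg
A full cyclic AMP response element, TGACGTCA, was in none of the members' windows and in 1.55% of all windows. The core of the antioxidant response element, TGACNNNGC, was found in the windows of Phgdh and Asns, against 10.2% of all windows. A match is a description of the sequence and not a measured binding site.

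Total counts ranged from 3105119 to 5161132 in naïve brain and from 5380395 to 13130158 in the tumors, so that 3 counts corresponded to between 0.214 and 0.811 CPM. CPM is the count of a gene scaled to the library total, and CPM values here are scaled by the trimmed mean of M values (TMM). The labelled tissue was checked by markers. The summed neuron markers were 5010 to 6310 CPM in naïve brain, 213 to 1050 in CT2A, 861 to 2000 in GL261 and 127 to 233 in Mut3. The 005 tumor of replicate 3 stood apart from its group: its neuron markers summed to 3790 CPM against 647 and 230 in the other two, its oligodendrocyte markers to 4670 CPM against 614 and 436, and its proliferation genes to 145 CPM against 1250 and 1320. Mitochondrial genes took 17.8% of its counts, and 14.97 to 23.97% in naïve brain. Naïve replicate 2 also stood apart, with 4160 CPM of oligodendrocyte markers against 1650 and 1670, the smallest library and a TMM factor of 1.298. Differences between 005 and naïve brain are given with and without 005 replicate 3, and values without naïve replicate 2 are given where a call changed.

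Across the 5 groups, 7 of the 10 genes differed in edgeR's quasi-likelihood test at an adjusted p under 0.05, against 52.1% of all tested genes. The 7 were Atf4, Ddit3, Phgdh, Psat1, Shmt2, Slc7a11 and Slc3a2. The adjusted p was 0.0864 for Trib3, 0.125 for Chac1 and 0.48 for Asns. Against naïve brain, no member was called lower in any tumor in this fit of the counts. That depended on the scale and the filter, since limma on log2(TPM + 1) called 8 differences lower (given with the TPM levels), and Ddit3 in Mut3 was called lower with at least 10 counts in every sample (-0.82, adjusted p = 0.0489). CT2A had 4 members called higher, where 42% of all tested genes were called, 20.3% higher and 21.7% lower. GL261 had 1, where 23.6% of all genes were called, 15.1% higher and 8.45% lower. The 005 tumors had 2, where 12.9% of all genes were called, 11.8% higher and 1.13% lower. Mut3 had 3, where 40.3% of all genes were called, 19.3% higher and 21% lower. The 3 serine and glycine enzymes made up 8 of these 10 calls. For CT2A, the median log2 fold change of the 10 genes was 0.71, where that of all tested genes was -0.04. The same 2 medians were 0.39 and -0.08 for GL261, 0.91 and 0.01 for 005, and 0.32 and 0.11 for Mut3. Without replicate 3, the 005 tumors had 8 members called higher, all but Chac1 and Asns, where 37.9% of all genes tested in that fit were called, 18.6% higher and 19.3% lower. The median of the 10 genes was then 1.05 and that of all genes -0.07.

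**Figure D1:**
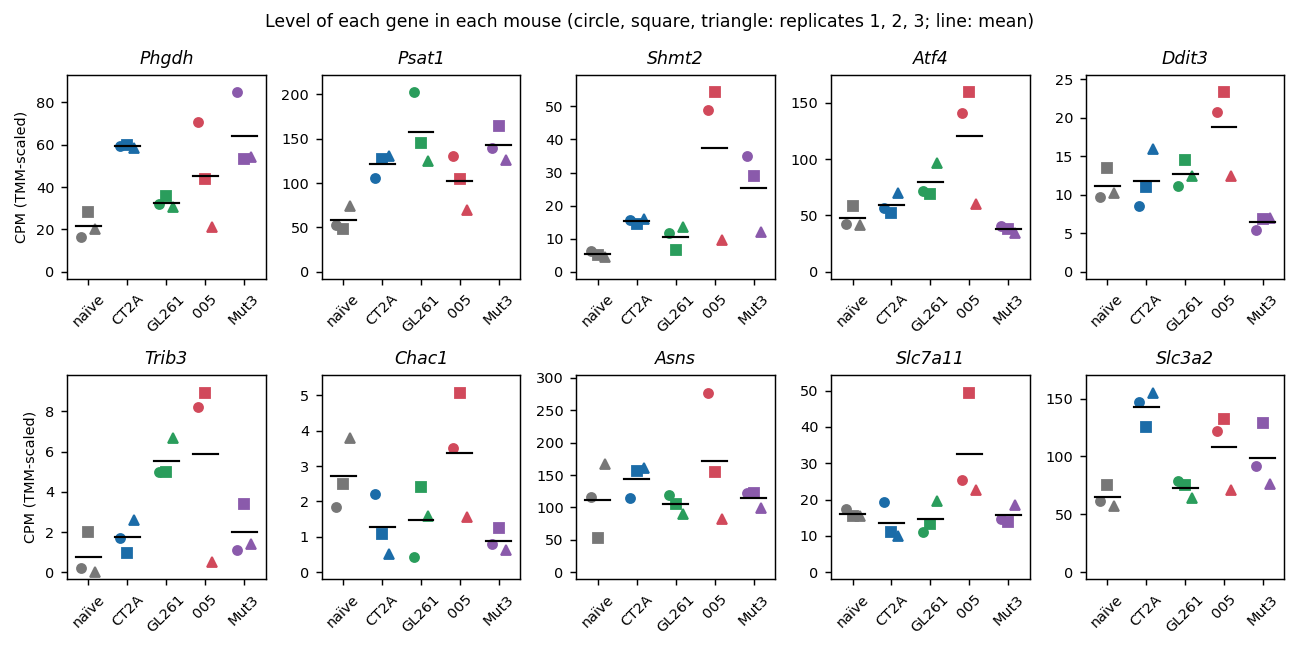
TMM-scaled CPM of the 10 genes on the vertical axes (linear, each with its own range), with 1 point per mouse in each of the 5 groups and a line at the group mean (n = 3). The naïve samples lie below every CT2A and Mut3 sample for Phgdh, Psat1 and Shmt2, and the 005 sample of replicate 3 (red triangle) is the lowest 005 point in every panel.

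Phgdh, the first enzyme of the serine route, was higher in CT2A and Mut3 than in naïve brain. Phgdh CPM was 16.5, 28.1 and 20.3 in naïve brain, 59.2, 59.9 and 58.3 in CT2A, and 84.6, 53.0 and 54.4 in Mut3. All 6 of these tumors lay above all 3 naïve samples. Phgdh was 2.73-fold higher in CT2A, a log2 fold change of 1.45 ± 0.38 (SE, adjusted p = 0.00844). Its level in Mut3 was 2.96-fold that of naïve brain, a log2 fold change of 1.56 ± 0.38 (adjusted p = 0.00508). In GL261 Phgdh CPM was 31.9, 35.6 and 30.6, also above naïve brain in all 3 samples, with a log2 fold change of 0.59 (95% interval -0.20 to 1.39, adjusted p = 0.242). In 005 it was 70.5, 43.6 and 21.1, and the sample of replicate 3 fell within the naïve range. The 005 difference, 1.06 ± 0.37, did not pass (adjusted p = 0.0763), and without that sample it was 1.33 (adjusted p = 0.0043). The summed astrocyte markers, which go with cells that carry Phgdh in healthy brain, were 2900 to 3120 CPM in naïve brain against 455 to 987 in CT2A, 1610 to 2340 in GL261, 455 to 3110 in 005 and 1150 to 2180 in Mut3. Of the 10 astrocyte markers, 7 were lower in CT2A and 5 were lower and 1 higher in Mut3. Their part in the Phgdh result was not tested.

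Psat1, the aminotransferase that follows PHGDH, passed the test in 3 of the 4 tumors. Psat1 CPM was 52.6, 47.8 and 73.8 in naïve brain, 106, 127 and 130 in CT2A, 202, 145 and 125 in GL261, and 139, 164 and 126 in Mut3. None of these 9 tumors overlapped the naïve range. On the log2 scale Psat1 rose by 1.44 ± 0.29 in GL261 (adjusted p = 0.00409), by 1.3 ± 0.29 in Mut3 (adjusted p = 0.00338) and by 1.06 ± 0.29 in CT2A (adjusted p = 0.0112). Psat1 was the only member called in GL261. In 005 Psat1 CPM was 131, 105 and 69.5, of which the last lay within the naïve range, and the log2 fold change of 0.81 ± 0.29 did not pass (adjusted p = 0.0787). Without replicate 3 it was 0.96 (adjusted p = 0.0137).

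Shmt2, the mitochondrial serine hydroxymethyltransferase, had the largest fold changes of the members that passed the test. Shmt2 CPM was 6.32, 4.98 and 4.60 in naïve brain, 48.8, 54.2 and 9.61 in 005, and 35.0, 29.1 and 12.2 in Mut3. Every tumor of both groups lay above naïve brain, and 005 replicate 3 was the lowest 005 sample. Shmt2 rose by 2.81 ± 0.57 on the log2 scale in 005 (adjusted p = 0.00582) and 2.25 ± 0.56 in Mut3 (adjusted p = 0.00626). Leaving out 005 replicate 3 gave 3.20 in 005 (adjusted p = 0.000103). With only the 005 and naïve samples in the fit, the 005 call was lost (2.89, adjusted p = 0.0638). In CT2A Shmt2 CPM was 15.6, 14.4 and 15.9, a log2 fold change of 1.52 ± 0.56 (adjusted p = 0.0399). This CT2A call was lost when any 1 of the 6 libraries was left out, with log2 fold changes of 1.44 to 1.69 and adjusted p of 0.0615 to 0.102. It was also lost with library size without TMM (1.34, adjusted p = 0.0685). In GL261 Shmt2 CPM was 11.6, 6.63 and 13.7, above naïve brain in all 3 samples, and the log2 fold change of 1.00 ± 0.56 did not pass (adjusted p = 0.188). The Shmt2 gene overlaps Ndufa4l2, on the other strand, by 32 bases.

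The proliferation genes were also higher in the tumors than in naïve brain. All 8 were higher in each of the 4 tumors than in naïve brain, and their summed level was 32 to 48.4 CPM in naïve brain, 943 to 1500 in CT2A, 719 to 891 in GL261, 145 to 1320 in 005 and 1000 to 2110 in Mut3. Phgdh, Psat1 and Shmt2 were not all called in GL261 or, with all samples, in 005. The part of the proliferation genes in the enzyme results was not tested.

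**Figure D2:**
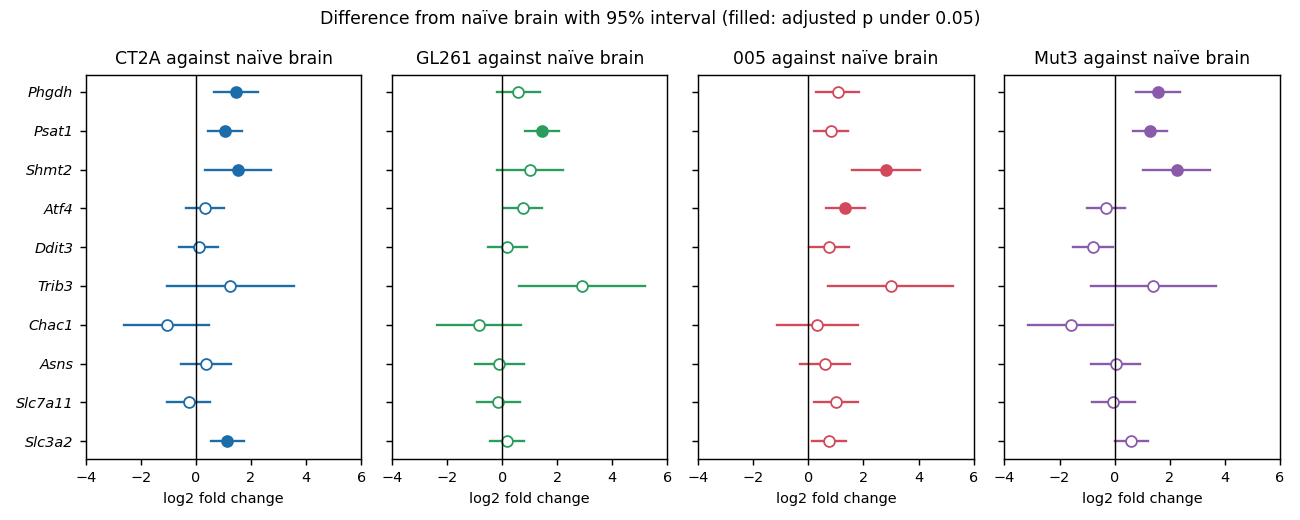
Log2 fold change of each gene against naïve brain in the 4 tumors (horizontal axis, points), with the 95% interval as a line. Filled points passed an adjusted p under 0.05: 4 for CT2A, 3 for Mut3, 2 for 005 and 1 for GL261, all to the right of zero.

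Atf4, the transcription factor of the response, was highest in 005 and lowest in Mut3. Atf4 CPM was 42.0, 58.3 and 41.9 in naïve brain and 141, 159 and 60.5 in 005, and the third 005 value lay just above the naïve range. In 005 the log2 fold change was 1.34 ± 0.33 (adjusted p = 0.0158), about 2.54-fold, and 1.59 without replicate 3 (adjusted p = 0.000442). The call was lost without naïve replicate 1 (1.27, adjusted p = 0.0725), naïve replicate 3 (1.27, adjusted p = 0.0619), 005 replicate 1 (1.22, adjusted p = 0.0604) or 005 replicate 2 (1.1, adjusted p = 0.0865). It was also lost with only the 005 and naïve samples in the fit (1.41, adjusted p = 0.145). Atf4 CPM was 72.1, 68.9 and 96.9 in GL261, above every naïve sample, but the log2 fold change of 0.74 ± 0.33 did not pass (adjusted p = 0.104). CT2A had 56.8, 51.9 and 70.1 CPM, which overlapped naïve brain. Mut3 had 40.8, 38.4 and 34.7 CPM, all below naïve brain, with a log2 fold change of -0.32 (95% interval -1.02 to 0.37, adjusted p = 0.451). Without naïve replicate 2, the highest naïve sample, the Mut3 value was 0.03 (adjusted p = 0.963).

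Ddit3, which encodes CHOP, followed the same order of groups as Atf4. Ddit3 CPM was 9.79, 13.5 and 10.3 in naïve brain, 8.55, 11 and 16.0 in CT2A, 11.2, 14.5 and 12.4 in GL261, 20.7, 23.3 and 12.5 in 005, and 5.48, 6.92 and 6.95 in Mut3. The 3 Mut3 samples lay below all other samples, while the 005 sample of replicate 3 lay within the naïve range. No tumor passed the test against naïve brain, with log2 fold changes of 0.75 ± 0.34 in 005 (adjusted p = 0.144) and -0.79 ± 0.34 in Mut3 (adjusted p = 0.0761). It was 0.91 in 005 without replicate 3 (adjusted p = 0.0456). The end of Ddit3 overlaps the end of Mars by 68 bases on the other strand, and a second annotated Ddit3 gene ID was not used here.

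Trib3 was near the detection limit in naïve brain. Its counts there were 1, 8 and 0, of which 2 lie under the floor of 3 counts, and Trib3 CPM was 4.97, 5.01 and 6.67 in GL261 and 8.24, 8.93 and 0.498 in 005. The GL261 samples were above all naïve samples, and the 005 samples split into 2 high values and 1 within the naïve range. Neither difference passed. For GL261 it was 2.91 on the log2 scale (95% interval 0.62 to 5.20, adjusted p = 0.0604) and for 005 it was 2.99 (0.70 to 5.27, adjusted p = 0.0787). Naïve replicate 2 decided the size of these values. Without it, the log2 fold change was 5.56 in GL261 (adjusted p = 0.023), 5.64 in 005 (adjusted p = 0.028) and 4.09 in Mut3 (adjusted p = 0.0453). With 005 replicate 3 left out instead, the 005 value was 3.46 (adjusted p = 0.00662).

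Chac1, which degrades glutathione, did not pass the test against naïve brain in any tumor. Chac1 CPM was 1.84, 2.49 and 3.79 in naïve brain, 3.50, 5.07 and 1.57 in 005, and 0.783, 1.26 and 0.616 in Mut3. Mut3 lay below naïve brain in all 3 samples, with a log2 fold change of -1.60 (95% interval -3.15 to -0.05, adjusted p = 0.0923). Without replicate 3 the 005 value was 0.60 (adjusted p = 0.538). The Chac1 values rest on 2 to 42 counts per sample, which limits their precision.

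Asns, the asparagine synthetase, did not pass the test in any comparison with naïve brain. Asns CPM was 116, 52.8 and 167 in naïve brain, 114, 156 and 161 in CT2A, 119, 105 and 89.9 in GL261, 277, 154 and 81.7 in 005, and 123, 123 and 99.7 in Mut3. The naïve range overlapped every tumor group. The log2 fold change against naïve brain was 0.61 in 005 (95% interval -0.29 to 1.51), 0.36 in CT2A (-0.54 to 1.26), 0.04 in Mut3 (-0.86 to 0.94) and -0.10 in GL261 (-1.0 to 0.80). Without replicate 3 the 005 value was 0.88 (adjusted p = 0.0835). Naïve replicate 2 was the lowest of the 15 samples, and without it the Mut3 value was -0.13 (adjusted p = 0.837). A difference of any size within these intervals could not be told from none.

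Slc7a11, the light chain of the cystine exchanger, was higher in the 005 samples than in naïve brain, though the difference did not pass the test over all genes. Slc7a11 CPM was 17.5, 15.4 and 15.4 in naïve brain and 25.3, 49.4 and 22.6 in 005, without overlap. The log2 fold change was 1.01 ± 0.37 (adjusted p = 0.0857), and 1.14 without replicate 3 (adjusted p = 0.0285). The other tumors stayed between 10.1 and 19.7 CPM and overlapped naïve brain. Slc3a2, the heavy chain that carries SLC7A11 and several other transporters to the membrane, was higher in CT2A. Slc3a2 CPM was 61.8, 75.2 and 56.8 in naïve brain and 147, 125 and 155 in CT2A, a log2 fold change of 1.14 ± 0.29 (adjusted p = 0.00716). It was 122, 132 and 70.8 in 005 and 92.0, 129 and 75.8 in Mut3, where every value of Mut3 and 2 of 005 lay above naïve brain. Neither passed, with log2 fold changes of 0.75 (adjusted p = 0.0953) in 005 and 0.61 (adjusted p = 0.0974) in Mut3. Without 005 replicate 3 the 005 value was 0.91 (adjusted p = 0.0137), and without naïve replicate 2 the Mut3 value was 0.91 (adjusted p = 0.0488). The highest group mean was that of 005 for Slc7a11 and that of CT2A for Slc3a2. Slc7a11 overlaps an antisense gene, Gm37854, which had 0 to 10 counts per sample.

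The order of groups differed among the genes, and between neighbours in the order of mean CPM no difference passed the test for any of the 10. For Atf4 and Ddit3 the order was 005, GL261, CT2A, naïve, Mut3. Phgdh had the order Mut3, CT2A, 005, GL261, naïve, and Psat1 the order GL261, Mut3, CT2A, 005, naïve. For Shmt2 it was 005, Mut3, CT2A, GL261, naïve. Naïve brain was the lowest group for 5 genes (Phgdh, Psat1, Shmt2, Trib3 and Slc3a2), Mut3 for 3 (Atf4, Ddit3 and Chac1), CT2A for Slc7a11 and GL261 for Asns. The 005 group was the highest for 7 genes, all but Phgdh, Psat1 and Slc3a2.

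Levels of different genes were compared per transcript length, in TPM, which is scaled for transcript length and library total. Over the 15 samples, Asns ranged from 12.8 to 33.8 TPM, Slc3a2 from 12.7 to 33.6, Psat1 from 12.5 to 24.4 and Atf4 from 6.69 to 32.2. Phgdh ranged from 5.43 to 17.2 TPM, Ddit3 from 2.59 to 14.7 and Shmt2 from 1.07 to 9.16. Chac1, Slc7a11 and Trib3 were the lowest, with no sample above 1.35, 1.14 and 1.83 TPM. Slc3a2 RNA was thus present at more than 10 TPM in every sample and its partner Slc7a11 at about 1 TPM or less. This gap depends on the transcript length used for TPM, which for Slc7a11 was 8.64 times that of Slc3a2. In CPM, without a length, Slc7a11 ranged from 10.1 to 49.4 and Slc3a2 from 56.8 to 155. TPM was not used for the main comparison of groups, because the 10 genes highest in TPM took 25.4 to 26.2% of TPM in naïve brain and 27.4 to 35.5% in the tumors while making up 0.501 to 6.25% of counts. On the log2(TPM + 1) scale the median of all tested genes was -0.38 for CT2A, -0.35 for GL261, -0.23 for 005 and -0.27 for Mut3 against naïve brain. On that scale 8 of the 10 calls above were lost in limma's test. The calls of Psat1 in GL261 and Shmt2 in 005 kept an adjusted p under 0.05, with log2 differences of 0.59 and 1.42. In CT2A all 4 were lost, with 0.44 for Phgdh (adjusted p = 0.267), 0.09 for Psat1 (0.716), 0.36 for Shmt2 (0.466) and 0.15 for Slc3a2 (0.681). In Mut3 all 3 were lost, with 0.67 for Phgdh (adjusted p = 0.108), 0.47 for Psat1 (0.0558) and 0.95 for Shmt2 (0.0649), and in 005 Atf4 had 0.61 (adjusted p = 0.151). Other members were called lower on that scale. In CT2A they were Ddit3 (-0.81, adjusted p = 0.0276), Chac1 (-0.73, adjusted p = 0.00671) and Slc7a11 (-0.37, adjusted p = 0.0478), where 41.2% of all genes were called lower. In GL261 they were Chac1 (-0.64, adjusted p = 0.0166) and Asns (-0.73, adjusted p = 0.0446), against 36.3% of all genes. In Mut3 they were Atf4 (-1.03, adjusted p = 0.0172), Ddit3 (-1.35, adjusted p = 0.00198) and Chac1 (-0.80, adjusted p = 0.00438), against 34.3%. No member was called lower in 005, against 21.9%.

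Between tumors, Atf4 was higher in 005 and GL261 than in Mut3, and Ddit3 was higher in 005 than in Mut3. Atf4 was 3.17-fold higher in 005 than in Mut3 (log2 fold change 1.66 ± 0.33, adjusted p = 0.00468), and Ddit3 was 2.91-fold higher (1.54 ± 0.34, adjusted p = 0.0076). The 3 samples of 005 lay above the 3 of Mut3 for both genes. These 2 members were called in this comparison, against 20.7% of all tested genes. With only the 005 and Mut3 samples in the fit, Ddit3 did not pass (1.58, adjusted p = 0.0549). Without 005 replicate 3, the values were 1.93 for Atf4 and 1.71 for Ddit3, and 4 members were called, with Chac1 (2.21, adjusted p = 0.0495) and Slc7a11 (1.19, adjusted p = 0.0416) added. All 4 were higher in 005, as were 9.96% of all genes in that fit. Atf4 was also higher in GL261 than in Mut3 (1.06 ± 0.33, adjusted p = 0.037), the 1 member called there, against 18% of all genes. This call was lost without GL261 replicate 2 (1.16, adjusted p = 0.0666), GL261 replicate 3 (0.82, adjusted p = 0.144), Mut3 replicate 1 (1.22, adjusted p = 0.0762), Mut3 replicate 2 (1.06, adjusted p = 0.0923) or Mut3 replicate 3 (1.14, adjusted p = 0.0814).

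Immune cell markers also differed in these comparisons. All 9 macrophage and microglia markers were higher in 005 than in Mut3 and 8 of 9 were higher in GL261 than in Mut3, as were 4 of the 5 tested T cell markers in each. The summed macrophage and microglia markers were 468 to 794 CPM in GL261, 440 to 1020 in 005 and 60.1 to 165 in Mut3. The T cell markers summed to 63.7 to 113 CPM in GL261, 56.7 to 336 in 005 and 6.82 to 18.1 in Mut3. Among these markers only Cd3e was at 0 in a tumor of the compared groups, in Mut3 replicate 2. Of the 10 neuron markers, 9 were higher in each comparison. Without 005 replicate 3, 7 macrophage and microglia markers, 4 T cell markers and 4 neuron markers were higher in 005 than in Mut3. The part of these cells in the Atf4 and Ddit3 results was not tested.

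No member passed the test in the 4 other pairs of tumors, where the share of all genes called was 7.96% (CT2A against GL261), 4.16% (CT2A against 005), 13.2% (CT2A against Mut3) and 2.63% (GL261 against 005). At an unadjusted p under 0.05 the counts were 2, 3, 1 and 3, and the share of all genes under that p is not given. DESeq2 called 1, 2, 0 and 2 members. Among all genes it called 2388 of 17400, 2012 of 17061, 3506 of 17400 and 1026 of 17400 in the same order. The nearest to the threshold was Slc3a2, higher in all 3 CT2A samples than in the GL261 samples, with a log2 fold change of 0.97 ± 0.28 (adjusted p = 0.0504). Without 005 replicate 3, Atf4, Shmt2 and Slc7a11 were lower in CT2A than in 005, with log2 fold changes of -1.30, -1.72 and -1.45 (adjusted p = 0.012, 0.0249 and 0.0432), where 2.21% of all genes were lower. Slc7a11 was also called in this pair without CT2A replicate 1 (-1.62, adjusted p = 0.0492). Leaving out 005 replicate 3 also gave 3 members called lower in GL261 than in 005, against 3.09% of all genes, namely Shmt2 (-2.28, adjusted p = 0.004), Slc7a11 (-1.35, adjusted p = 0.048) and Atf4 (-0.93, adjusted p = 0.0484).

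**Figure D3:**
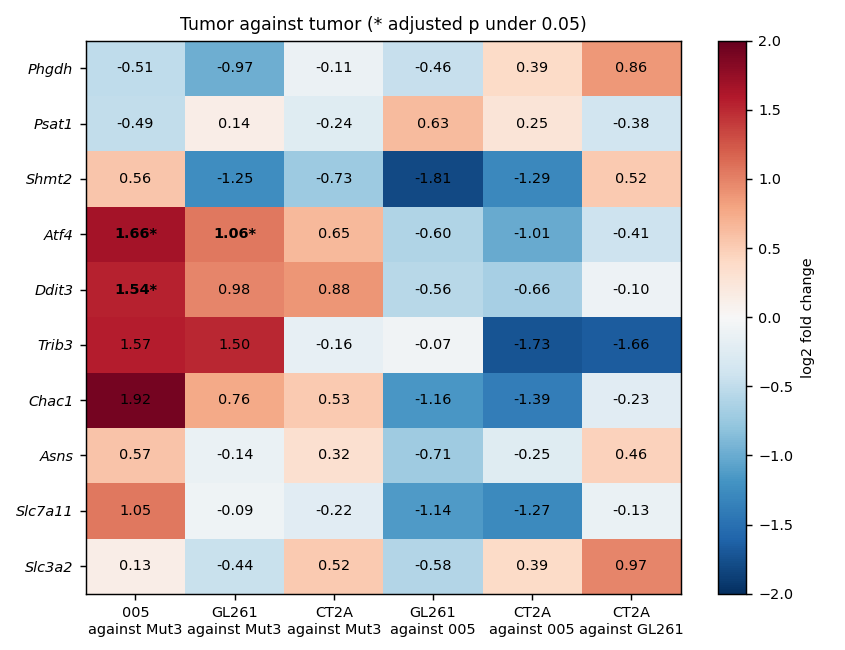
Log2 fold change of the 10 genes (rows) in the 6 pairs of tumors (columns), printed in each cell, where positive values are higher in the group named first and an asterisk marks an adjusted p under 0.05. The 3 marked cells are Atf4 and Ddit3 in 005 against Mut3 and Atf4 in GL261 against Mut3.

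The other enzymes of serine, glycine and one-carbon metabolism had members that passed the test in all 4 tumors. Of 15 measured, 5 were higher and 4 lower in CT2A than in naïve brain, and 5 higher and 1 lower in GL261. In 005, 7 were higher and 1 lower, and in Mut3 9 were higher and 1 lower. Of all tested genes, 20.3% were higher and 21.7% lower in CT2A, and 15.1% and 8.45% in GL261. The same shares were 11.8% and 1.13% in 005, and 19.3% and 21% in Mut3. Without 005 replicate 3 they were 18.6% and 19.3% in 005. The counts of this and the following lists stand beside these shares, and no list was tested as a set. Mthfd2, the mitochondrial folate enzyme that follows SHMT2, was at 11.2 ± 3.47 CPM (SD, n = 3) in naïve brain and its mean was highest in CT2A (142 ± 41.4), then 005 (102 ± 67.3), Mut3 (88.4 ± 22.2) and GL261 (68.1 ± 11.5), with log2 fold changes of 3.66, 3.19, 2.98 and 2.60 that all passed. Tyms, which uses a folate unit for DNA synthesis, was higher in all 4 tumors, by 3.63 to 5.25 on the log2 scale. Mthfd1l and Shmt1 were among the enzymes that were higher in CT2A and in GL261. Amt, a subunit of the glycine cleavage system, went in both directions, with log2 fold changes of -2.43 in CT2A and 1.3 in Mut3. The 1 enzyme that was lower in GL261, in 005 and in Mut3 was Srr, the serine racemase of neurons and astrocytes, which was also lower in CT2A. With 005 replicate 3 left out, 8 were higher and 1, again Srr (-2.34), lower in 005, and Mthfd2 and Tyms were higher by 3.57 and 4.05.

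Other ATF4-responsive genes were called in both directions in CT2A and Mut3. Of 20, 5 were higher and 3 lower in CT2A, and 2 higher and 0 lower in GL261. In 005, 6 were higher and 0 lower, and in Mut3 7 were higher and 2 lower. Of all tested genes, 20.3% were higher and 21.7% lower in CT2A, and 19.3% and 21% in Mut3. Those higher were 15.1% in GL261 and 11.8% in 005. Nupr1, a stress-induced chromatin protein, was at 75.1 ± 28.6 CPM in naïve brain against 1510 ± 331 in CT2A and 630 ± 485 in 005, with log2 fold changes of 4.33 and 3.07, and at 88.8 ± 43.7 in Mut3, where it did not pass (0.24). Cebpb, which encodes a C/EBP protein and is also high in myeloid cells, was higher in 005 (2.29), and it was 8.65-fold higher in 005 than in Mut3 (log2 fold change 3.11, adjusted p = 0.00247). Stc2, a secreted glycoprotein, was higher in 005 (2.53) and Mut3 (3.12). Gpt2, a mitochondrial alanine aminotransferase, was higher in Mut3 (2.06). The 2 genes higher in GL261 were Eif4ebp1 and Gdf15. The fit without 005 replicate 3 had 9 genes higher in 005 and 1, Jdp2, lower (-1.96, adjusted p = 0.0234). Nupr1 was then 3.48, Stc2 2.14 (adjusted p = 0.0299) and Cebpb 2.60 against naïve brain, and Cebpb was 3.44 against Mut3 (adjusted p = 0.000313).

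The kinases that phosphorylate eIF2 alpha were measured with their partners and phosphatase subunits. Of these 8 genes, 2 were higher and 2 lower in CT2A, and 1 higher and 2 lower in GL261. In 005, 1 was higher and 0 lower, and in Mut3 3 were higher and 2 lower. The shares of all genes in each tumor are those given with the one-carbon enzymes. Eif2ak2, which encodes the interferon-induced kinase PKR, was higher in all 4 tumors, by 1.31 in Mut3 and by 2.78 to 2.90 in the others on the log2 scale. Eif2ak1, which encodes the heme-regulated kinase, was lower in CT2A (-1.21). Impact, an inhibitor of GCN2 that is high in neurons, was lower in CT2A (-1.72), GL261 (-1.53) and Mut3 (-2.49). Gcn1, an activator of GCN2, was lower in GL261 (-1.0) and higher in Mut3 (1.05). In the fit without 005 replicate 3, Eif2ak2 was 3.05 in 005, and Impact was also lower there (-2.20, adjusted p = 0.000374).

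Genes of protein synthesis and of the other arms of the unfolded protein response were counted in the same way. The shares of all genes are again those given with the one-carbon enzymes. Of 20 cytosolic aminoacyl-tRNA synthetases, which charge tRNAs with amino acids, 8 each were higher in CT2A and Mut3, 5 in GL261 and 3 in 005, and 0 were lower in any. Without 005 replicate 3, 8 were higher in 005, among them Lars (1.29), and 1, Hars, was lower (-0.76, adjusted p = 0.0252). Lars and Kars were both higher in CT2A (1.69 and 1.70), GL261 (1.53 and 1.16) and Mut3 (1.12 and 1.55). Of 17 genes of the ATF6 and XBP1 arms, 8 were higher and 3 lower in CT2A, 9 higher and 0 lower in GL261, 5 higher and 0 lower in 005, and 5 higher and 2 lower in Mut3. Edem1, which marks misfolded glycoproteins for degradation, was higher in all 4 tumors, by 3.05, 2.95, 2.53 and 1.75 in the same order, as was Pdia4, a disulfide isomerase, by 2.03, 2.37, 1.73 and 1.48. Ern1, the sensor that splices Xbp1, passed only in GL261 among the comparisons of all samples with naïve brain (3.52). Without 005 replicate 3, 7 genes of these arms were higher in 005, with 2.82 for Edem1, 1.98 for Pdia4 and 1.94 for Ern1 (adjusted p = 0.0135), and 1, Sel1l, was lower (-1.87, adjusted p = 0.000924).

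Of 7 tested amino acid transporters, 1 was higher and 1 lower in CT2A and 0 passed in GL261. In 005, 2 were higher and 0 lower, and in Mut3 2 were higher and 1 lower. The same shares of all genes stand beside the counts of these transporters and of the NRF2 and glutathione genes. Slc1a5, the glutamine transporter, was higher in CT2A (2.02), 005 (2.26) and Mut3 (2.44), and had a log2 fold change of 1.26 in GL261. Slc7a1, which carries cationic amino acids, was higher in Mut3, and Slc38a1, a neutral amino acid carrier of neurons, was lower in CT2A (-0.70). Slc7a11 is also an NRF2 target, and of 13 NRF2 targets and glutathione genes 4 were higher and 0 lower in CT2A, 4 higher and 1 lower in GL261, 3 higher and 0 lower in 005, and 3 higher and 1 lower in Mut3. Nfe2l2, which encodes NRF2, was higher in CT2A (2.35), GL261 (2.07) and 005 (2.69), while Nqo1, a classical NRF2 target, was higher in CT2A (1.43) and Mut3 (1.46). When 005 replicate 3 was left out, 3 transporters were higher in 005, with 2.65 for Slc1a5 and 1.14 for Slc7a1 (adjusted p = 0.0228), and Slc7a3 was lower (-3.09, adjusted p = 0.00564). Of the NRF2 and glutathione genes 4 were then higher, with 3.01 for Nfe2l2, and 0 lower.

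**Figure D4:**
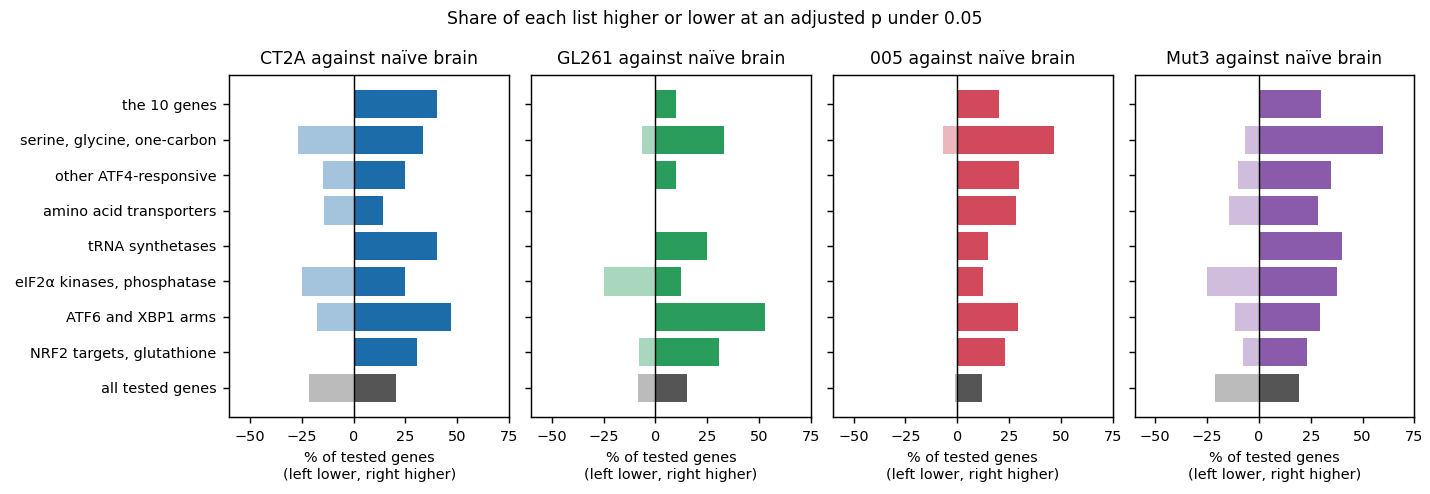
Share of the tested genes of each list (percent, horizontal axis) that was higher (right, dark) or lower (left, pale) than in naïve brain at an adjusted p under 0.05, in the 4 tumors, with all 17481 tested genes in grey. No bar of the 10 genes or of the aminoacyl-tRNA synthetases extends to the left in this fit of all 15 samples.

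Within the 10 genes, the levels over the 15 samples gave Pearson correlations of log2 CPM from -0.47 (Chac1 and Psat1) to 0.87 (Atf4 and Ddit3). Atf4 and Trib3 had 0.73, Phgdh and Shmt2 had 0.73, and Phgdh and Slc3a2 had 0.76. Atf4 and Phgdh had 0.11, and Slc7a11 and Slc3a2 had 0.06. Among 8929 genes with a mean log2 CPM of at least 3, those most like Atf4 included Tab2 (0.94) and Tnc (0.92). Those most like Ddit3 were Lrrk2 (0.88), Ppa1 (0.87) and Fosl2 (0.86), and those most like Slc7a11 were Rgs5 (0.88), Ep300 (0.83) and Adam10 (0.83). For Phgdh they were Ncapd2 (0.96), Nsa2 (0.94) and Mex3a (0.93), and for Psat1 they were Rpl38 and Rpl38-ps2 (both 0.98) and Ssbp1 (0.96), where Rpl38 and its pseudogene copy may share reads. For Shmt2 they were Stab1 (0.93), C1qbp (0.92) and Poc1b (0.92), and for Slc3a2 Ahnak2 (0.94), Wwtr1 (0.92) and Resf1 (0.91). These correlations describe 15 samples that share group, tissue composition and depth, and they were not tested.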

How the data were processed

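Bulk RNA-seq was measured in 15 mice, 3 per group, with groups taken from the labels. Per the labels, reads were aligned with STAR v2.4.2a to a GENCODE mouse genome, and the submitters' processing notes list Salmon, DESeq2 1.18.1 and mm10. The authors deposited estimated counts per gene, not normalized, which were rounded here. The TPM values were also deposited by the authors, scaled for transcript length and library total. Strandedness and annotation release are not given in the sources used here. Gene IDs were matched to symbols for 46201 of 46679 genes.

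Counts of all 15 samples were fitted with edgeR 4.0.16 (R 4.3.3; TMM, filterByExpr, quasi-likelihood test, 1 mean per group), with Benjamini-Hochberg adjustment over 17481 genes, 10 pairwise comparisons and a test of the 5 groups. Intervals are 95%. On simulated data for CT2A against naïve brain (17086 genes), 42.9% of 4-fold, 75.8% of 8-fold and 3.08% of 2-fold changes were called, with 0 false calls. Only 200 genes were changed there, each gene at the trended dispersion, whereas 42% of all tested genes were called in the data. The adjustment is stricter when few genes change, so these shares do not give the power of the real comparison. DESeq2 1.42.0, limma 3.58.1 on log2(TPM + 1), other scalings and filters, a replicate block and leaving out each library were alternatives. The counts of the other gene lists without 005 replicate 3 were added after seeing the data. Genes named are the 10 members, up to 4 per list with the smallest p over the 5 groups, the 3 genes most correlated with each member that passed that test, and genes to which a count of 5 or fewer refers. Of the last kind, Mthfd1l, Shmt1, Srr, Eif4ebp1, Gdf15, Jdp2, Hars and Sel1l were named after their values were seen. Some items of the genotypes and of these genes are not reported here. The 10 members and the lists were chosen with earlier results of these data known. Each sample is 1 mouse, so p-values measure the spread between mice.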

Additional observations from a re-analysis of the deposited data

Results flagged for a closer look

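The difference from naïve brain differed between tumors, by a test of the difference itself, for 2 genes. For Atf4, the log2 difference between tumors was 1.06 in GL261 against Mut3 and 1.66 in 005 against Mut3. For Ddit3 it was 1.54 in 005 against Mut3. Of all tested genes, 18% were called in GL261 against Mut3 and 20.7% in 005 against Mut3. The Atf4 call in GL261 against Mut3 was kept in 1 of 6 fits with a library left out. It was lost with library size without TMM (1.05, adjusted p = 0.0619) and on log2(TPM + 1) (0.97, adjusted p = 0.0698). The Ddit3 call was lost with only the compared groups in the fit (1.58, adjusted p = 0.0549). With 3 samples per group, single samples were not screened by the test for outliers.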

How the results depend on the processing

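The number of genes called among the 5 groups (5 to 8) and in CT2A against naïve brain stayed within 1.5 times its value under each alternative run, and CT2A against Mut3 had 0 calls in each. In CT2A against naïve brain the count hides other genes and the opposite direction on log2(TPM + 1), where the 4 higher calls were lost and 3 other genes were lower. With only the compared groups in the fit, the counts were 3 (GL261 against naïve), 0 (005 against naïve), 3 (CT2A against GL261), 2 (GL261 against Mut3) and 1 (005 against Mut3). DESeq2 called 2, 5, 1, 3 and 4 in the same order, and 2 in CT2A against 005 and 2 in GL261 against 005. Among all genes it called 5669 of 17400 in GL261 against naïve and 3613 of 17061 in 005 against naïve. It called 2388 in CT2A against GL261, 4428 in GL261 against Mut3 and 4761 in 005 against Mut3, each of 17400. In CT2A against 005 it called 2012 of 17061, and in GL261 against 005 1026 of 17400. On log2(TPM + 1), limma called 3 (GL261 against naïve, 1 higher and 2 lower), 3 (Mut3 against naïve, all lower in place of 3 higher), 1 (005 against naïve, higher), 1 (CT2A against 005, Atf4, lower) and 0 (GL261 against Mut3). Of all 17481 genes, limma called 8055, 7697, 5299, 697 and 1817 in the same order. Without a filter on low counts the counts were 2 (GL261 against naïve), 1 (GL261 against 005) and 0 (GL261 against Mut3). With at least 10 counts in every sample, where 8 of the 10 genes were tested, they were 1 (CT2A against GL261), 1 (CT2A against 005) and 2 (GL261 against Mut3). Relative log expression size factors gave 1 in CT2A against GL261, and library size without TMM gave 0 in GL261 against Mut3. Of all 17481 genes, these 2 runs called 1407 and 2760 there. Leaving out 1 library at a time gave 1 to 2 calls in GL261 against naïve, 1 to 8 in 005 against naïve, 3 to 5 in Mut3 against naïve, 0 to 3 in CT2A against 005, 0 to 3 in GL261 against 005, 0 to 1 in GL261 against Mut3 and 2 to 4 in 005 against Mut3. For the compared groups alone, the filters and the left-out libraries other than 005 replicate 3, the share of all genes is not given. Those member counts have no background beside them. The cause of the changes in count was not tested.

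The replicate block gave 0 calls in GL261 against Mut3 (Atf4 1.08, adjusted p = 0.0576), and moved no other count by over 1.5 times. The replicate numbers mark no shared animal. Samples with the same number in other groups had correlations of -0.33 to 0.26, and 2 of 15 samples were closest on average to their own number.

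Single-gene values were followed for all differences from naïve brain and for tumor pairs with an unadjusted p under 0.05, 57 results. Tumor differences above that p were left out, so that changes of sign or call among them were not counted. Within the 57 results, the values that changed sign were differences from naïve brain that had not passed the test on the counts. Of them, Ddit3 in CT2A was called lower on log2(TPM + 1) (adjusted p = 0.0276). On log2(TPM + 1) they were Atf4 (-0.60), Ddit3 (-0.81) and Asns (-0.46) in CT2A, Atf4 (-0.06), Ddit3 (-0.55), Phgdh (-0.17) and Slc3a2 (-0.60) in GL261, Chac1 (-0.17) and Asns (-0.01) in 005, and Asns (-0.60) and Slc3a2 (-0.22) in Mut3. With library size without TMM, Ddit3 in CT2A was -0.15, and with only the compared groups Asns in GL261 was 0.03. With 1 library left out, the ranges were -0.18 to 0.45 (Ddit3, CT2A), -0.30 to 0.31 (Asns, GL261), -0.49 to 0.16 (Slc7a11, GL261), -0.09 to 0.64 (Chac1, 005), -0.40 to 0.03 (Atf4, Mut3), -0.13 to 0.45 (Asns, Mut3) and -0.20 to 0.10 (Slc7a11, Mut3). Of 845 single-gene values under alternatives for these 57 results, 738 kept their direction and side of the threshold.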
